A study of Mus musculus with 4 samples.

Results

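The genes described here encode the subunits of AMPA and kainate receptors, the glutamate-gated channels of fast excitatory signalling. They are Gria1 to Gria4 for AMPA receptors and Grik1 to Grik5 for kainate receptors, chosen by symbol, and all 9 were found among the 25567 genes of every count table. Counts came from single nuclei of the hippocampus of 8.5-month-old mice, sorted by flow cytometry into wells, 1 nucleus in each, and sequenced by Smart-seq2, a method that reads whole transcripts rather than their ends. The 4 groups were EdU+ Fasn-R1812W, EdU+ WT, NeuN+ Fasn-R1812W and NeuN+ WT, with 1 library each. Fasn-R1812W mice carry a substitution in fatty acid synthase, and WT mice do not. EdU+ nuclei had built a thymidine analogue into their DNA, given at 100 mg per kg by intraperitoneal injection 2 times a day for 3 days, with isolation on day 4. NeuN+ nuclei were stained for the neuronal protein NeuN. The labels give no number of animals and no sex, and they do not say on which allele or alleles the substitution lies.

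AMPA receptors are tetramers of GluA1 to GluA4, the products of Gria1 to Gria4, and the presence of an edited GluA2 makes the channel nearly impermeable to calcium. Kainate receptors are tetramers too: the products of Grik1 to Grik3 can form channels by themselves, while those of Grik4 and Grik5 need a partner among them. The edit is made in RNA by an adenosine deaminase, mainly Adarb1, which changes a glutamine codon in the pore loop to one read as arginine. In the hippocampus, glutamatergic principal neurons are known for AMPA receptors rich in GluA1 and GluA2, several interneuron types for receptors poor in GluA2, and oligodendrocyte precursors for AMPA receptors at synapses that neurons form on them.

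The stretch around this codon is shown because the share of Gria2 among AMPA subunits, and with it the edited codon, is one of the measures compared between classes. In the reference transcripts of GENCODE release M21 (GRCm38) the codon was CAG in 8 of 9 members and CAA in Gria4. Capitals mark the codon, with 24 coding bases on either side, 5′ to 3′. The first 3 are the members known to be edited there, and the other 2 are AMPA subunits that are not.
Gria2: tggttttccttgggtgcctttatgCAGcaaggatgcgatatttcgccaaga
Grik1: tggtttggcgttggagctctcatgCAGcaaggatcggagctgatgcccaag
Grik2: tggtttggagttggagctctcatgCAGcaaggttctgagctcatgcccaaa
Gria1: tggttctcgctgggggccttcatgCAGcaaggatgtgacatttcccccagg
Gria4: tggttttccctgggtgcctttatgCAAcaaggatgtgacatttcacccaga
The codon lies at chr3:80706911-80706913 in exon 11 of Gria2 (minus strand), at chr16:87940542-87940544 in exon 13 of Grik1 (minus) and at chr10:49244329-49244331 in exon 12 of Grik2 (minus). It lies at chr11:57243094-57243096 in exon 11 of Gria1 (plus) and at chr9:4464137-4464139 in exon 12 of Gria4 (minus). Over these 51 bases, pairs of AMPA subunits shared 41 to 48 bases, pairs of kainate subunits 28 to 46, and pairs across the families 32 to 36. Count tables hold no base calls, so editing itself was not measured.

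Total counts ran from 36368990 in EdU+ WT to 96597804 in EdU+ Fasn-R1812W. Wells with at least 1000 genes and 50000 reads were kept, which left 348 EdU+ Fasn-R1812W, 167 EdU+ WT, 301 NeuN+ Fasn-R1812W and 314 NeuN+ WT nuclei. Kept EdU+ nuclei held a median of 224967 reads and 3006 genes in Fasn-R1812W, against 80771 reads and 1298 genes in WT, so EdU+ WT stands apart in depth. All 4 libraries use the same 384 well names, and 0 wells had identical counts between libraries. With 1 library per group there was no spread between animals to set a genotype difference against.

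Classes were clusters of nuclei made without the 9 members and named from marker genes. NeuN+ nuclei gave dentate granule-like (79 Fasn-R1812W and 137 WT nuclei), CA1 pyramidal-like (63 and 44), subicular or entorhinal-like (26 and 19) and GABAergic interneuron-like classes (42 and 42). EdU+ nuclei gave oligodendrocyte precursor-like (217 and 115), neuroblast-like (36 and 19) and microglia-like classes (32 and 3). The summed level of the 14 precursor markers was 14382 CPM in Fasn-R1812W and 14551 CPM in WT precursor-like nuclei, where CPM is reads per 1e6 reads of nuclear-encoded genes. In the same nuclei the 11 markers of committed precursors summed to 2004 CPM in Fasn-R1812W and 3496 CPM in WT (1 at 0 in both), and the 16 markers of dividing cells to 308 CPM in Fasn-R1812W (0 at 0) and 407 CPM in WT (3 at 0). Clusters that met no naming rule are called by their leading genes. They held 91 Fasn-R1812W and 72 WT nuclei of NeuN+, and 63 and 30 nuclei of EdU+. Orders of classes given below leave these nuclei out. Since the classes come from the same nuclei, contrasts between classes are descriptions with no test.

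Between the gates, Gria1 and Grik2 were lower in EdU+ than in NeuN+ nuclei, and the other 7 members were not called. The test was edgeR's quasi-likelihood test on 4 pooled libraries with genotype as covariate, over 17411 genes, at an adjusted p of 0.05 by the Benjamini-Hochberg method. It called 2.88% of all genes lower and 3.85% higher in EdU+, and of the members 2 of 9 lower and 0 of 9 higher. In pooled nuclei, fewer cells of a type and less RNA per cell cannot be told apart.

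Gria1, which lies at chr11:57011387-57330244 on the plus strand and encodes GluA1, had 84.7 and 120.4 CPM in EdU+ Fasn-R1812W and EdU+ WT, against 1257 and 1158 CPM in NeuN+ Fasn-R1812W and NeuN+ WT. The gates did not overlap, and the log2 fold change was -3.61 ± 0.35 (SE; edgeR adjusted p = 0.00348). Each SE given with a fold change was derived, as the absolute log2 fold change over the square root of the test's F statistic. Grik2, at chr10:49094833-49788766 on the minus strand, encodes the kainate subunit GluK2. It had 79.7 and 92.0 CPM in EdU+ Fasn-R1812W and EdU+ WT, against 252 and 284 CPM in NeuN+ Fasn-R1812W and NeuN+ WT. The fold change was -1.68 ± 0.32 (SE; edgeR adjusted p = 0.0283). This call was lost without NeuN+ WT, where gate was fitted alone, and both calls were lost when nuclei needed 2000 genes and 100000 reads, which left 5 EdU+ WT nuclei.

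Gria2, at chr3:80681450-80802835 on the minus strand, encodes GluA2. It stood at 1710.5 and 1859.5 CPM in EdU+ Fasn-R1812W and EdU+ WT, against 3551 and 3675 CPM in NeuN+ Fasn-R1812W and NeuN+ WT. Both EdU+ libraries lay below both NeuN+ libraries, but the log2 fold change of -1.05 ± 0.31 (SE) did not pass in edgeR's test (adjusted p = 0.105). Gria3, at chrX:41400854-41678601 on the plus strand, encodes GluA3 and had a log2 fold change of -1.10 ± 0.30 (SE; edgeR adjusted p = 0.0830). DESeq2 on the same design called both, as it called 3754 genes in all against 1171 by edgeR.

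The remaining members had overlapping or close levels. Gria4, at chr9:4417896-4796234 on the minus strand, had 323 and 277 CPM in EdU+ Fasn-R1812W and EdU+ WT, against 238 and 214 CPM in NeuN+ Fasn-R1812W and NeuN+ WT. Its log2 fold change was 0.38 ± 0.30 (SE; edgeR adjusted p = 0.570), the groups not overlapping. The 4 other kainate subunits had fitted changes between -0.71 for Grik1 and 0.52 for Grik3, with edgeR adjusted p from 0.577 to 0.733.

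**Figure D1:**
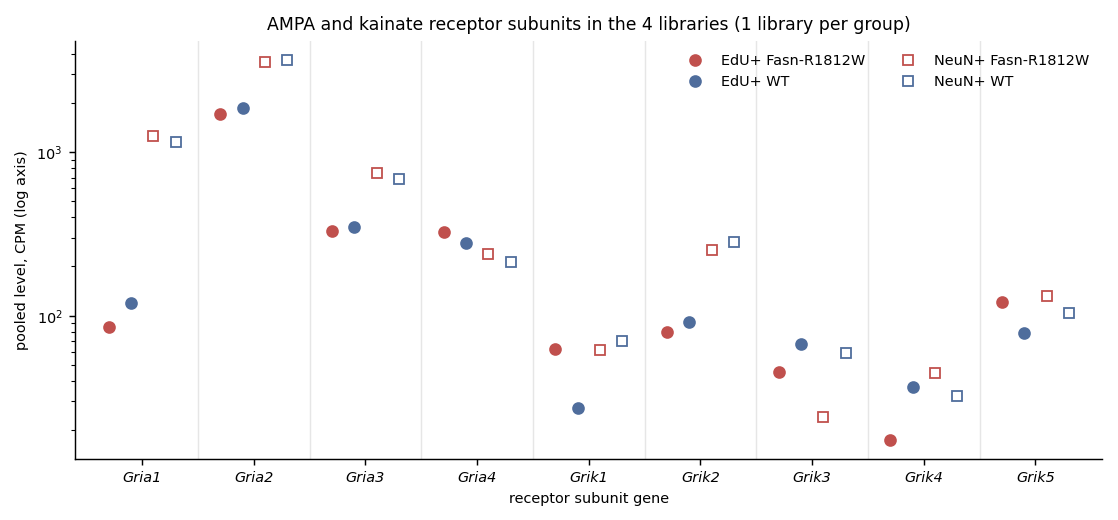
Pooled level of each of the 9 subunit genes in CPM on a log axis, 1 point per library. Filled circles are EdU+ and open squares NeuN+ libraries, red Fasn-R1812W and blue WT. The EdU+ points of Gria1 (84.7 and 120.4 CPM) sit far below its NeuN+ points (1257 and 1158 CPM), while those of Gria4 sit slightly above.

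Of 13 auxiliary AMPA subunits, 1 was higher in EdU+ and 3 were lower, beside 3.85% of all genes higher and 2.88% lower. Cacng4, a TARP subunit also used here as a precursor marker, had 511 and 581 CPM in EdU+ Fasn-R1812W and EdU+ WT, against 10.6 and 3.54 CPM in NeuN+ Fasn-R1812W and NeuN+ WT (log2 fold change 6.44 ± 0.56, SE; edgeR adjusted p = 0.00269). Cnih3, a cornichon auxiliary protein, had 8.11 and 18.6 CPM in EdU+ Fasn-R1812W and EdU+ WT, against 117.5 and 115 CPM in NeuN+ Fasn-R1812W and NeuN+ WT. Cacng3 had 0 and 0.466 CPM in EdU+ Fasn-R1812W and EdU+ WT, against 98.8 and 76.5 CPM in NeuN+ Fasn-R1812W and NeuN+ WT. Cacng2, stargazin, had 0.0738 and 0.0665 CPM in EdU+ Fasn-R1812W and EdU+ WT, against 27.9 and 27.5 CPM in NeuN+ Fasn-R1812W and NeuN+ WT.

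Of the 6 genes of AMPA receptor assembly in the endoplasmic reticulum, Frrs1l alone was called, and it was lower in EdU+ (-2.33 ± 0.34, SE; edgeR adjusted p = 0.0108). Of 17 scaffold and trafficking genes, 5 were lower and 0 higher, beside 2.88% of all genes lower and 3.85% higher. The 4 of these with the highest NeuN+ levels were Nsf, an ATPase that binds GluA2, with a log2 fold change of -1.73, Nptx1 with -2.79, Dlg2, which encodes the scaffold PSD-93, with -2.27, and Nptxr with -2.83. Neither of the 2 auxiliary kainate subunits, Neto1 and Neto2, was called, and of the 3 adenosine deaminases 0 were. The median log2 fold change was -1.31 over the auxiliary AMPA subunits and -1.73 over the scaffolds, beside -0.16 over all genes tested. Adarb1, the editing enzyme named above, had 74.2 and 6.92 CPM in EdU+ Fasn-R1812W and EdU+ WT, against 127 and 142 CPM in NeuN+ Fasn-R1812W and NeuN+ WT (edgeR adjusted p = 0.184).

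Among the 6 neuronal, neuroblast-like and precursor-like classes, Gria1 was lowest in precursor-like nuclei, Gria4 and Grik1 were highest in interneuron-like nuclei, and Gria2 had reads in nearly all nuclei of each neuronal and precursor class. Levels of the same gene are compared between classes in CPM. Values are given with Fasn-R1812W nuclei before WT nuclei, and neighbours in an order are said to overlap where their ranges over the 2 libraries do.

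Gria1 was highest in CA1-like nuclei, at 1791 and 2021 CPM in Fasn-R1812W and WT. Granule-like nuclei came next with 1435 and 1362 CPM, then interneuron-like nuclei with 1348 and 1128 CPM, and no neighbours among these 3 classes overlapped. Subicular or entorhinal-like nuclei, at 603 and 524 CPM, overlapped neuroblast-like nuclei, at 406 and 613 CPM. Precursor-like nuclei were lowest of the 6 classes, with 67.4 and 53.2 CPM. One nucleus held 28.5% of the Gria1 reads of precursor-like Fasn-R1812W nuclei and 56.9% of those of WT.

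Gria2 was highest in CA1-like nuclei too, at 4525 and 4545 CPM in Fasn-R1812W and WT, above granule-like nuclei at 4114 and 4052 CPM. Precursor-like nuclei, at 2171 and 2046 CPM, overlapped interneuron-like nuclei, at 1519 and 2404 CPM. Neuroblast-like nuclei, at 2577.5 and 2263 CPM, lay above the precursors and overlapped the interneurons, and subicular or entorhinal-like nuclei, at 3581 and 2945 CPM, lay between granule-like and neuroblast-like nuclei. The Gria2 range of interneuron-like nuclei was the widest of the 6 classes between the libraries.

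Gria3 was highest in CA1-like nuclei on average. CA1-like nuclei had 1083 and 918 CPM in Fasn-R1812W and WT, interneuron-like nuclei 610.2 and 711 CPM, granule-like nuclei 597 and 576 CPM and precursor-like nuclei 525 and 422 CPM. Subicular or entorhinal-like nuclei differed between the libraries, with 1089 and 506 CPM, and overlapped each of these 4 classes. Neuroblast-like nuclei were lowest, with 75.9 and 362 CPM.

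Gria4 had 809 and 655 CPM in interneuron-like nuclei of Fasn-R1812W and WT, the highest of the 6 classes, with no overlap. Next came subicular or entorhinal-like nuclei at 356 and 499.8 CPM and precursor-like nuclei at 498 and 323 CPM, which overlapped. Granule-like nuclei had 88.8 and 39.2 CPM and CA1-like nuclei 68.5 and 26.9 CPM, which also overlapped. Neuroblast-like nuclei had 266 and 11.0 CPM. The level was uneven inside the subicular or entorhinal-like class. Its cluster led by Rxfp1, Trps1 and Cd44, of 8 and 9 nuclei, had 717 and 786 CPM, and its cluster led by Fn1, Fezf2 and Ndst3 had 166 and 176 CPM.

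Among kainate subunits, Grik1 (chr16:87895900-88290265, minus strand), which encodes GluK1, was the most uneven. Interneuron-like nuclei had 376 and 457 CPM in Fasn-R1812W and WT and precursor-like nuclei 93.4 and 34.7 CPM, with no overlap. Granule-like nuclei had 1.26 and 2.12 CPM and CA1-like nuclei 0.461 and 5.78 CPM. A single nucleus held 91.3% of the Grik1 reads of CA1-like WT nuclei and 80.0% of those of granule-like WT nuclei.

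Grik2 was highest in granule-like (369 and 333 CPM in Fasn-R1812W and WT), subicular or entorhinal-like (274 and 416 CPM) and interneuron-like nuclei (286 and 351 CPM), which overlapped. CA1-like nuclei had 142 and 169.6 CPM and precursor-like nuclei 94.6 and 102.1 CPM. Grik3 (chr4:125490700-125714173, plus strand), which encodes GluK3, had 57.5 and 135 CPM in interneuron-like and 65.7 and 94.6 CPM in precursor-like nuclei. CA1-like nuclei held 0 Grik3 reads in Fasn-R1812W, which allows up to 0.230 CPM by the limit of 3 reads, and 1.13 CPM in WT.

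Grik4 (chr9:42518135-42944493, minus strand), which encodes GluK4, had 54.6 and 43.7 CPM in granule-like nuclei of Fasn-R1812W and WT, 16.6 and 16.4 CPM in interneuron-like and 16.4 and 7.79 CPM in CA1-like nuclei. The cluster led by Cpne7, Slit2 and Sv2b, which stayed unnamed and scored highest for CA3 markers, had 131 and 94.3 CPM. Subicular or entorhinal-like nuclei had 0.202 and 1.48 CPM. Neuroblast-like nuclei had 39.5 and 133 CPM, with 77.8% of the WT reads in 1 nucleus. Grik5 (chr7:25009849-25072346, minus strand), which encodes GluK5, was the most even, from 68.3 CPM in WT interneuron-like to 158 CPM in Fasn-R1812W precursor-like nuclei.

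**Figure D2:**
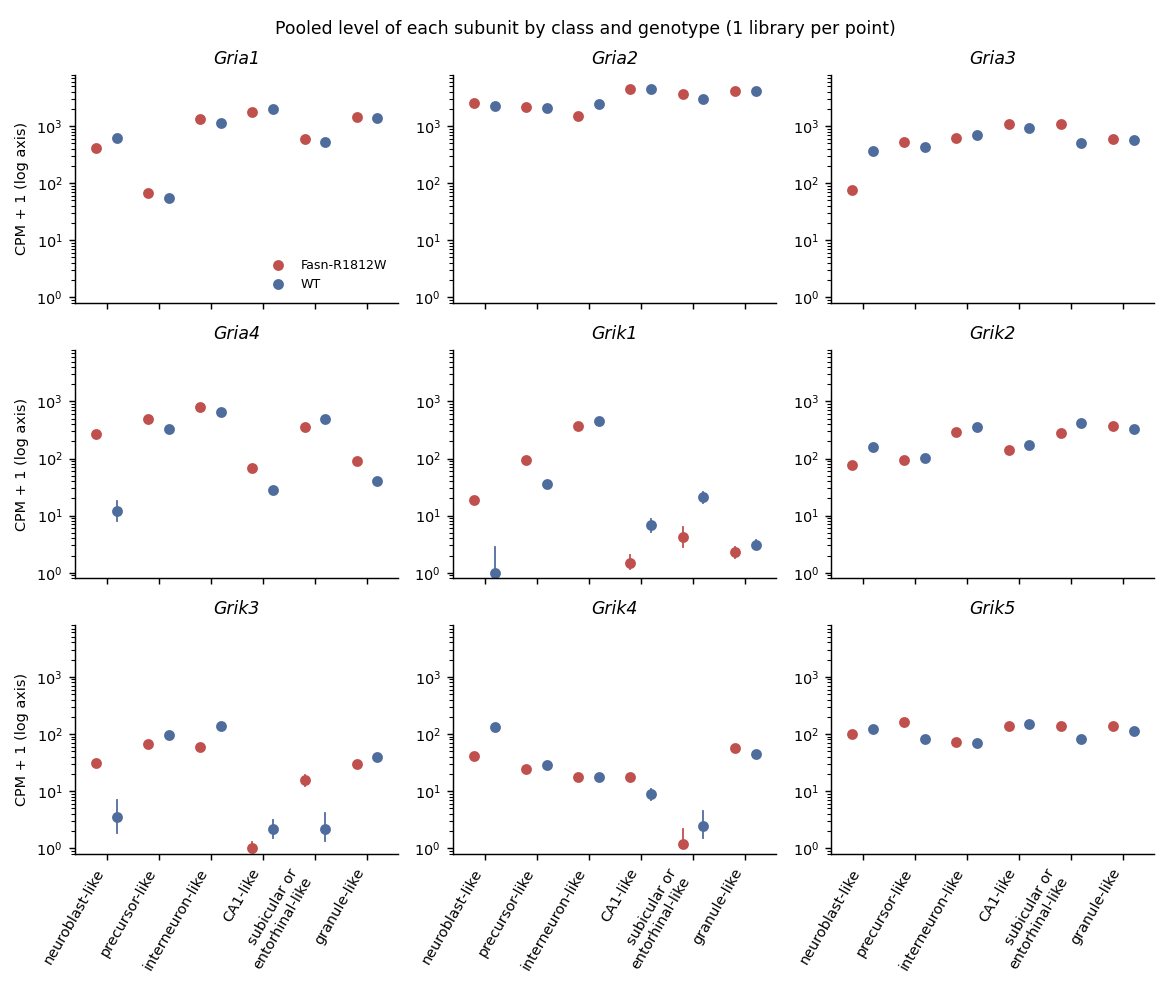
Pooled level of each subunit as CPM + 1 on a log axis in 6 classes, red Fasn-R1812W and blue WT, 1 library per point. Vertical lines are exact Poisson 95% intervals, which cover counting error only and are mostly hidden by the points. Gria2 is at 1519 CPM or more in every class shown, Gria1 is lowest in precursor-like nuclei, and Grik1 stands out in interneuron-like nuclei.

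Set against granule-like nuclei, interneuron-like nuclei had Gria4 and Grik1 at least 2-fold higher in both genotypes and Grik4 at least 2-fold lower. Of all genes, 10.4% were higher and 9.49% lower by that rule. Gria4 was higher by a log2 ratio of 3.17 in Fasn-R1812W and 4.03 in WT, Grik1 by 7.38 and 7.20, and Grik4 stood at -1.66 and -1.36. These ratios carry a prior of 1 CPM in both terms, which pulls those of low genes toward 0. All 3 differences were kept under each of the 7 other ways of choosing or summing nuclei. Among these, a clustering resolution of 0.6 left both classes as they were, so it was no separate check here. Against CA1-like nuclei, 4 members were higher by that rule and 0 lower, beside 10.9% and 8.50% of genes. These were Gria4, Grik1, Grik2 and Grik3, but Grik2, with ratios of 1.01 in Fasn-R1812W and 1.04 in WT, was kept under only 1 of the 7.

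CA1-like against granule-like nuclei gave 0 members higher and 2 lower, Grik3 and Grik4, beside 6.72% and 8.62% of genes. Grik4 had log2 ratios of -1.68 in Fasn-R1812W and -2.35 in WT. Subicular or entorhinal-like against granule-like nuclei gave Gria4 higher and Gria1 and Grik4 lower, beside 8.91% and 10.1% of genes. The ratios of Gria1 were -1.25 in Fasn-R1812W and -1.38 in WT. The class value joined unlike clusters. The one led by Fn1, Fezf2 and Ndst3 (18 and 10 nuclei) had 884 and 1034 CPM of Gria1 in Fasn-R1812W and WT. The whole class had 603 and 524 CPM, and granule-like nuclei 1435 and 1362 CPM. The part of each cluster in these ratios was not tested.

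Precursor-like nuclei had Gria1 and Grik2 at least 2-fold lower than granule-like nuclei in both genotypes, and Gria4, Grik1 and Grik3 higher, beside 14.8% of all genes lower and 13.3% higher. The log2 ratio of Gria1 was -4.39 in Fasn-R1812W and -4.65 in WT and that of Grik2 -1.95 and -1.70. Gria4 stood at 2.47 and 3.01 and Grik1 at 5.38 and 3.52. Grik3, at 1.14 and 1.30, fell under 2-fold in 4 of the 7 other settings. Against interneuron-like nuclei, Gria1, Grik1 and Grik2 were lower and 0 members higher, beside 13.4% and 11.3% of genes. Gria4 missed the rule there, with -0.70 and -1.02.

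Precursor-like nuclei came from 6 clusters, which the libraries filled unequally. The clusters led by Pcdh15, Gpr17 and Ntrk3 (57 and 26 nuclei) and by Arl6ip1, Ramp1 and Olig2 (22 and 29) were the largest of Fasn-R1812W and of WT. The class also holds a cluster led by Gpr17, Bcas1 and Tril (32 and 6 nuclei), whose scores for precursor and for committed precursor markers were both 1.55, so the class was not separated from committed precursors. Gria4 had 413 and 351 CPM in the first and 484 and 609 CPM in the second. Gria1 had 18.8 CPM in Fasn-R1812W and 137 CPM in WT in the first, and was higher in Fasn-R1812W in the second (log2 ratio 4.07), so its low level was uneven between clusters and libraries. The 9 markers of neurons of any kind summed to 2141 and 1768 CPM in precursor-like nuclei, against 17146 and 15070 CPM in CA1-like nuclei. Their part in the precursor values was not tested.

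Neuroblast-like nuclei had Gria1 at least 2-fold higher than precursor-like nuclei and Grik1 and Grik3 lower, beside 7.98% of all genes higher and 17.0% lower. The log2 ratio of Gria1 was 2.57 in Fasn-R1812W and 3.50 in WT. Against granule-like nuclei, Gria1 and Grik2 were lower, with -1.82 and -1.15 for Gria1, beside 20.1% of genes lower and 8.99% higher. The class had 19 WT nuclei with a median of 96220 reads, and 4 of its 9 members differed by over 4-fold between the genotypes. Its 12 neuroblast markers summed to 2166 and 2169 CPM in Fasn-R1812W and WT. The 13 astrocyte markers summed to 6885 and 7688 CPM there, and to 4041 and 4311 CPM in precursor-like nuclei. Precursor markers summed to 1917 and 617 CPM in neuroblast-like nuclei. The part of other cell types in these values was not tested.

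The mix of subunits was taken per length, as each member's share of its family's reads per kilobase of annotated exon. This base affects which member leads. Annotated exons of Gria2 cover 15548 bases, largely untranslated, against 6043 of Gria1, while their coding exons cover 2804 and 2836. So shares are read across classes for the same member and not as an order of members.

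Gria2 made up 19.1% and 29.9% of the AMPA family in interneuron-like nuclei of Fasn-R1812W and WT, against 45.9% and 47.3% in granule-like nuclei. In CA1-like nuclei it made up 41.1% and 40.4%, in precursor-like nuclei 49.3% and 56.2% and in neuroblast-like nuclei 58.6% and 51.0%. Gria4 made up 25.1% and 20.1% in interneuron-like and 27.9% and 21.8% in precursor-like nuclei, against 2.44% and 1.13% in granule-like nuclei. Gria1 made up 3.94% and 3.75% in precursor-like nuclei, against 41.2% and 40.9% in granule-like nuclei. This Gria1 difference averaged -37.2 percentage points, and -20.6 when shares were taken per coding length. The Gria4 shares of interneuron-like and precursor-like nuclei overlapped, and their Gria1 shares did not.

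The interneuron-like class was made of 2 clusters with different mixes. In the cluster that also carried Sst, Nxph1 and Kcnc2 (21 and 18 nuclei), Gria2 made up 14.9% and 16.3% of the AMPA family in Fasn-R1812W and WT, and Gria1 44.1% and 45.5%. In the cluster that also carried Erbb4, Dlx1 and Cnr1 (21 and 24 nuclei), Gria2 made up 27.7% and 45.0%. Gria4 had 1166 and 996 CPM in the first cluster, against 476 and 426 CPM in the second, and Gria3 had 1038 and 1003 CPM against 210.5 and 516 CPM. Grik1 ran the other way, with 223 and 321 CPM in the first cluster, against 518 and 548 CPM in the second.

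In the kainate family, Grik1 made up 55.7% and 54.2% in interneuron-like nuclei of Fasn-R1812W and WT, against 0.282% and 0.534% in granule-like nuclei. Grik2 made up 21.5% and 21.1% in interneuron-like nuclei, against 41.9% and 42.7% in granule-like nuclei. Grik5, which cannot form channels alone, made up 66.4% and 65.7% in CA1-like and 48.7% and 35.8% in precursor-like nuclei, against 39.2% and 37.2% in granule-like nuclei. Grik4 made up 13.8% and 12.4% in granule-like nuclei and 29.5% and 24.4% in the cluster led by Cpne7, Slit2 and Sv2b.

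**Figure D3:**
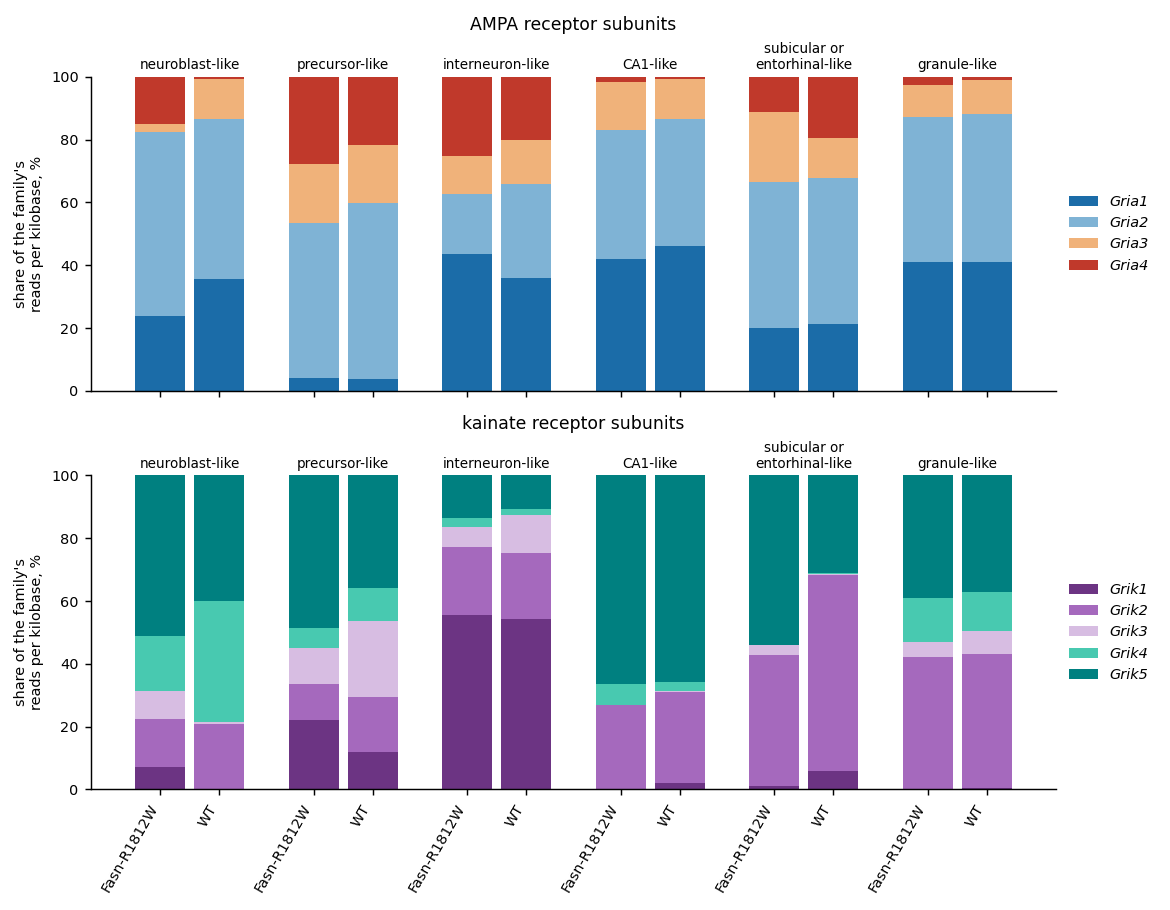
Share of each subunit in its family's reads per kilobase of annotated exon, in percent, with AMPA subunits in the upper and kainate subunits in the lower panel. Each class has its Fasn-R1812W library left of its WT library. Gria1 nearly vanishes in precursor-like nuclei (3.94% and 3.75%), and Grik1 makes up 55.7% and 54.2% of the kainate family in interneuron-like nuclei.

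AMPA subunits outweighed kainate subunits per length in each of the 6 classes. The ratio of the summed family levels was 17.6 and 16.5 in CA1-like nuclei of Fasn-R1812W and WT, 5.09 and 4.12 in interneuron-like nuclei and 4.50 and 5.37 in precursor-like nuclei, against 8.66 and 9.35 in granule-like nuclei.

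To compare nuclei of different depth, each was thinned to 50000 reads and the share with at least 1 read was taken. Thinning evened the reads and not the genes found per nucleus. Unthinned precursor-like nuclei held a median of 3015 and 1271 genes in Fasn-R1812W and WT. Granule-like nuclei held 3837 and 4111 and interneuron-like nuclei 4517 and 4518.5. The part of gene number in the shares was not tested. Gria2 had a read in 99.5% (95% exact binomial interval 97.5% to 99.99%) of precursor-like nuclei of Fasn-R1812W and 97.4% (92.6% to 99.5%) of WT, and in all nuclei of the 4 named NeuN+ classes. The 32 microglia-like nuclei of Fasn-R1812W, a type not expected to use these receptors, are given for comparison. The source of the subunit reads in this class was not tested. Gria2 had a read in 65.6% (46.8% to 81.4%) of these microglia-like nuclei, at a pooled 55.2 CPM of which 64.2% came from 1 nucleus. Before thinning, the median nucleus held 195440 reads in that class, against 210038 and 76929 in precursor-like nuclei of Fasn-R1812W and WT.

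Gria1 had a read in 12.4% (8.36% to 17.6%) and 6.96% (3.05% to 13.2%) of thinned precursor-like nuclei of Fasn-R1812W and WT, against 3.12% (0.0791% to 16.2%) of microglia-like nuclei. The intervals overlap, but they treat nuclei of 1 library as independent and are no test between classes. The pooled Gria1 level of microglia-like nuclei was 0.690 CPM. Gria3, with 59.4% (52.6% to 66.0%) and 51.3% (41.8% to 60.7%), was above its share of 15.6% (5.28% to 32.8%) in microglia-like nuclei. Gria4, with 53.0% (46.1% to 59.8%) and 39.1% (30.2% to 48.7%), had intervals that overlapped that of its 34.4% (18.6% to 53.2%) in microglia-like nuclei. Its pooled level there was 3.45 CPM, against 498 and 323 CPM in precursor-like nuclei. Grik1, in 73.8% and 69.0% of interneuron-like nuclei, had a read in 3.80% and 2.19% of granule-like and 18.4% and 11.3% of precursor-like nuclei. Before thinning, Gria1 had a read in 25.3% and 7.83% and Gria4 in 72.8% and 40.9% of precursor-like nuclei.

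All 4 AMPA subunits had a read in 73.8% and 61.9% of thinned interneuron-like nuclei of Fasn-R1812W and WT and in 2.76% and 2.61% of precursor-like nuclei, against 27.8% and 22.6% of granule-like nuclei. No kainate subunit had a read in 30.9% and 52.2% of precursor-like nuclei, against 2.53% and 3.65% of granule-like nuclei. These classes also differed in genes per nucleus, as given above.

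**Figure D4:**
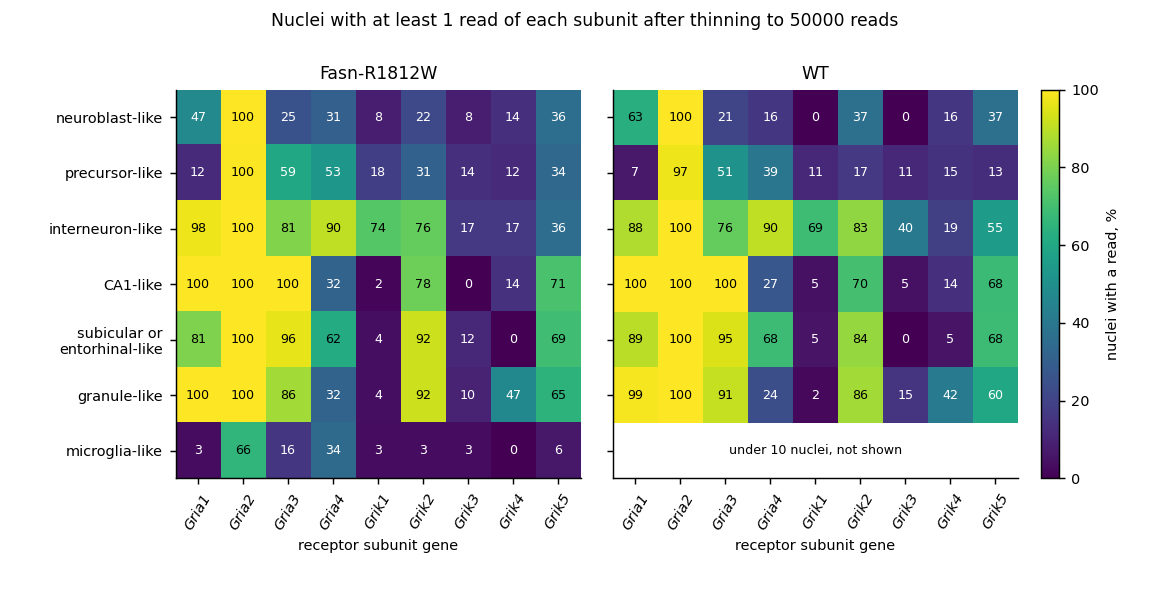
Percent of nuclei with at least 1 read of each subunit after thinning every nucleus to 50000 reads, by class, with Fasn-R1812W left and WT right. Microglia-like nuclei, the bottom row, are given for comparison, and the source of their reads was not tested. Gria2 is read in nearly all nuclei of 6 classes, and Grik1 mostly in interneuron-like nuclei (73.8% and 69.0%).

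Between genotypes, 0 of 9 members passed edgeR's test over the 4 libraries with gate as covariate, and 0 had an unadjusted p under 0.05. That test called 0.00574% of genes higher and 0 lower in Fasn-R1812W, with 276 at an unadjusted p under 0.05. DESeq2 called 89 genes and 0 members. The fit had 1 residual degree of freedom.

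Within a gate there was no test, and a member at least 2-fold apart was counted. In NeuN+ nuclei this held for 1 of 9 members, beside 6.20% of genes (3.17% higher and 3.03% lower), and that was Grik3, with 23.9 CPM in Fasn-R1812W and 59.1 CPM in WT (log2 ratio -1.27). The other 8 NeuN+ ratios lay between -0.18 and 0.45. In EdU+ nuclei it held for 2 of 9 members, beside 25.4% of genes (17.3% higher and 8.05% lower), a share near the members' own. Grik1 had 62.8 CPM in EdU+ Fasn-R1812W and 27.1 CPM in EdU+ WT (1.18), and Grik4 had 17.5 and 36.5 CPM (-1.02). With the relaxed filter of 300 genes and 20000 reads, 0 of 9 EdU+ members were 2-fold apart, and with the strict one 8. Gria1 had a ratio of -0.50 in EdU+ and 0.12 in NeuN+, and Gria2 -0.12 and -0.05. Markers of other cells moved with genotype in EdU+ nuclei. The 14 leukocyte markers summed to 4549.6 CPM in Fasn-R1812W (0 of them at 0) and 437 CPM in WT (6 at 0), and the 12 microglia markers to 3768 CPM in Fasn-R1812W and 1369.8 CPM in WT (0 at 0 in both). In NeuN+ nuclei the 18 interneuron markers summed to 3650.3 CPM in Fasn-R1812W and 2758 CPM in WT, and the 12 granule neuron markers to 1272 CPM in Fasn-R1812W and 2000.2 CPM in WT. The 13 astrocyte markers summed to 742 CPM in NeuN+ Fasn-R1812W (0 at 0) and 1796 CPM in NeuN+ WT (0 at 0). Their part in the subunit values was not tested.

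Grik3 lay lower in Fasn-R1812W in interneuron-like nuclei as well, with 57.5 CPM against 135 CPM in WT (-1.22), beside 34.9% of genes at least 2-fold apart in that class. One nucleus held 58.7% of these reads in Fasn-R1812W and 41.4% in WT. The difference lay in the interneuron cluster with Erbb4 and Dlx1, with a ratio of -2.81, while the cluster with Sst had 0.41. Grik3 went the other way in subicular or entorhinal-like nuclei, with 14.3 and 1.19 CPM (2.81), and in neuroblast-like nuclei, with 30.0 and 2.51 CPM (3.14). In granule-like nuclei Grik3 had 29.3 and 37.8 CPM (-0.36), and the cluster led by Etl4, Nxph3 and Cntnap4 had 58.6 and 211 CPM. That cluster held 17 Fasn-R1812W and 26 WT nuclei, so its number of nuclei moved with the NeuN+ difference. The part of class make-up in it was not tested.

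In granule-like nuclei, 1 of 8 members that passed the gene filter was 2-fold apart, beside 21.4% of genes. It was Gria4, with 88.8 CPM in Fasn-R1812W and 39.2 CPM in WT (1.16). The 3 granule-like clusters did not share a direction. Gria4 had 233 and 16.03 CPM in Fasn-R1812W and WT in the one led by Prox1, Slc4a4 and Ryr1 (3.78) and 83.5 and 60.8 CPM in the one led by Prox1, Dock10 and Synpr (0.45). In the one led by Sema5a, Prox1 and C1ql2, of 18 and 50 nuclei, it had 2.24 and 36.4 CPM (-3.53). Precursor markers in granule-like nuclei summed to 192 CPM in Fasn-R1812W (1 of 14 at 0) and 36.9 CPM in WT (4 at 0), and mature oligodendrocyte markers to 1037 CPM in Fasn-R1812W and 469 CPM in WT (0 of 13 at 0 in both). Astrocyte markers there summed to 761 CPM in Fasn-R1812W and 2792 CPM in WT, and the part of these markers in the Gria4 values was not tested. In CA1-like nuclei 1 of 7 was, beside 28.1% of genes, again Gria4, with 68.5 and 26.9 CPM (1.32) and 49.0% of the Fasn-R1812W reads in 1 nucleus. The CA1-like ratio was -0.25 with the relaxed filter. Gria1, Gria2 and Gria3 stayed within -0.17 and 0.24 in these classes.

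In precursor-like nuclei 1 of 9 members was 2-fold apart, beside 29.8% of genes. Grik1 had 93.4 CPM in Fasn-R1812W, with 12.6% of the reads in 1 nucleus, and 34.7 CPM in WT, with 32.2% (1.40). In the cluster led by Pcdh15, Gpr17 and Ntrk3, the largest of Fasn-R1812W, it went the other way, with 51.9 and 84.5 CPM (-0.69). Ratios were 2.08 in the cluster led by Arl6ip1, Ramp1 and Olig2 and 2.70 in that led by Sf3b1, Pdgfra and Scrg1. They were 4.47 in the cluster led by Ntrk3, Calm2 and Epn2 and 6.87 in that led by Opcml, Slc1a3 and Paxbp1, both with 0 CPM in WT. The cluster led by Gpr17, Bcas1 and Tril, with 6 WT nuclei, was not compared. The committed precursor markers, given above, were lower in Fasn-R1812W than in WT in this class, and their part in the Grik1 values was not tested. Grik5 had 158 and 80.9 CPM (0.96) and Gria4 498 and 323 CPM (0.62), while Gria2 had a ratio of 0.09. Depth moved with these values, the median precursor-like nucleus holding 210038 reads in Fasn-R1812W and 76929 in WT. In subicular or entorhinal-like nuclei 3 of 8 members were 2-fold apart, beside 42.5% of genes (20.3% higher and 22.2% lower), and in neuroblast-like nuclei 6 of 9, beside 66.5% (38.7% higher and 27.8% lower). In both, so many genes passed that the counts say little about the members.

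In interneuron-like nuclei Gria2 had a ratio of -0.66, with 1519 CPM in Fasn-R1812W and 2404 CPM in WT. By cluster it was 1642 and 1717 CPM in the one with Sst and 1404 and 2865 CPM in the one with Erbb4 and Dlx1, so the difference lay in the second.

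**Figure D5:**
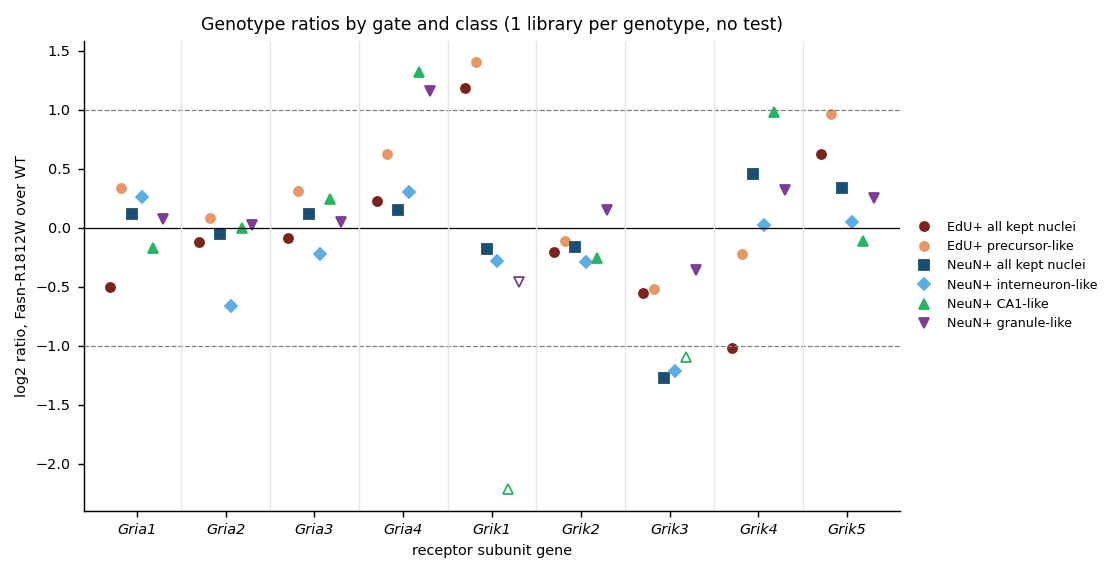
Log2 ratio of Fasn-R1812W over WT for each subunit in whole gates and in 4 classes, 1 library per genotype and no test. Dashed lines mark 2-fold, and open symbols are members under 10 CPM in both libraries. Gria2 lies between -0.66 and 0.09, and Grik3 lies below 0 in the 6 sets shown, which share nuclei; in the subicular or entorhinal-like and neuroblast-like classes, not shown, it lies at 2.81 and 3.14.

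Of 50 genes listed for the receptors, partners and editing enzymes, 2 were at least 2-fold apart between genotypes in the same direction in both gates. Of the 17411 genes tested, 1.96% were so higher and 1.17% lower in Fasn-R1812W, with no filter on the level within a gate, and nothing is read from the count of 2. Shisa8, an auxiliary AMPA subunit, had 9.63 CPM in EdU+ Fasn-R1812W against 34.1 CPM in EdU+ WT, and 0 CPM in NeuN+ Fasn-R1812W against 3.42 CPM in NeuN+ WT. Gsg1l, another, had 17.7 CPM in EdU+ Fasn-R1812W against 6.65 CPM in EdU+ WT, and 59.0 CPM in NeuN+ Fasn-R1812W against 24.9 CPM in NeuN+ WT. Neither passed the test over 4 libraries.

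Genes of the most alike pattern were found by Pearson's r of log2(CPM + 1) over the 13 class and library sums of at least 10 nuclei, which share libraries and depth. For Gria1 these were Celsr3 (r = 0.97) and Atp1b1 (0.97), and for Gria2 Hpcal4 (0.99) and Cttnbp2 (0.98). Gria3 went with Elavl3 (0.98) and Fam49a (0.98), and Gria4 with Mafg (0.93) and Cntfr (0.92). Grik1 went with Ptprm (0.96) and Plcxd3 (0.90), Grik2 with Pnmal1 (0.98) and Scn2a (0.98), and Grik3 with Zfp57 (0.93) and Ppp6r3 (0.90). Grik4 went with Slc15a2 (0.93) and Rars (0.92), and Grik5 with Kif1c (0.89) and Supt6 (0.88).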

How the data were processed

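Each deposited table gave raw read counts by gene for 384 wells, and the authors had not normalized them. The submitters' processing notes name Trimmomatic 0.36, STAR 2.5.3a and the build GRCm38.p5. How reads were assigned to genes, and whether strand was used, is not stated there. In GENCODE release M21 no gene on the opposite strand overlaps a member, and short RNAs and unconfirmed transcripts on the same strand lie inside Gria2, Gria3, Gria4, Grik2, Grik3 and Grik4. Smart-seq2 carries no molecular identifiers, so intervals (95%, exact Poisson or Clopper-Pearson) and the limit of 3 reads cover counting error only.

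Kept nuclei had at least 1000 genes and 50000 reads. Counts were summed per library or class and given as CPM of nuclear-encoded genes. Classes came from scanpy 1.11.5 and igraph 0.11.9 (2000 variable genes, 20 principal components, Leiden resolution 1). Doublets were not called, but an alternative dropped the nuclei in the top 5% by gene number. Tests used edgeR 4.0.16 (TMM, filterByExpr) in R 4.3.3, with DESeq2 1.42.0 as an alternative. The edgeR test was also run on simulated counts. These had the same dispersion for every gene and no shift in cell make-up, so they do not vouch for the calls given here. Genes counted between genotypes or classes needed 10 CPM and a read in 10% of nuclei, except in the count of listed genes 2-fold apart in both gates, which took all genes of the edgeR test. All 9 members are named. From each list up to 4 called genes with the highest CPM are named, along with those 2-fold apart in both gates; Adarb1 was added after its values were seen. The members and lists were chosen with earlier results of these data known, and the naming rule for clusters and the relaxed filter for classes were set after the data were seen. Embryonic nuclei were not analysed here.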

Additional observations from a re-analysis of the deposited data

Results flagged for a closer look

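Grik1 and Grik4 went opposite ways between genotypes in the 2 gates, and this difference was not tested. The log2 ratio of Fasn-R1812W over WT for Grik1 was 1.18 in EdU+ nuclei and -0.18 in NeuN+ nuclei. For Grik4 it was -1.02 in EdU+ nuclei and 0.45 in NeuN+ nuclei. Each value compares 1 library with 1 library, and neither EdU+ difference was 2-fold under the relaxed nucleus filter.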

How the results depend on the processing

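No paired analysis was possible because each group has 1 library, so the groups share fewer than 2 replicate numbers. Of 9 members, the gate test called 4 by DESeq2 and 0 under the strict nucleus filter (5 EdU+ WT nuclei), and 1 (without NeuN+ WT) to 5 (without EdU+ Fasn-R1812W) when 1 library was left out. Between the gates, the direction turned for Gria4 (-1.28) and Grik3 (-3.22) under the strict filter. With 1 library left out, Grik3 ran from -0.13 to 1.19 and Grik5 from -0.66 to 0.032. The EdU+ members 2-fold apart between genotypes (2 in the report) numbered 1 by mean CPM per nucleus, 1 thinned, 1 without the top nucleus and 1 with TMM scaling, 0 with the relaxed or no nucleus filter and 8 with the strict one, where Grik4 turned to 4.25. With the relaxed filter, added after seeing the data, Gria4 turned to -0.25 in CA1-like and -0.95 in neuroblast-like nuclei, and Grik1 to -1.87 in neuroblast-like nuclei. The cause of these changes was not tested.

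The mean share of Gria1 in precursor-like minus granule-like nuclei, -37.2 percentage points, was -36.2 at resolution 0.6, -36.7 at 1.5, -37.1 with 10 principal components, -41.0 with a marker score per nucleus, -38.0 without the 5% of nuclei richest in genes, -38.5 with the relaxed filter, -37.8 by mean per nucleus, -29.9 by longest transcript and -20.6 by coding length. Grik1 in interneuron-like minus granule-like nuclei, 54.5 points, was 57.0 with the marker score, 63.3 by longest transcript and 44.6 by coding length. Gria4 there, 20.8 points, was 14.9 by coding length. Gria2 there, -22.1 points, stayed between -24.3 and -21.9. Values of single members under an alternative were sorted by call. Of these, 271 kept their call between the gates or their side of the 2-fold rule between genotypes. Another 25 crossed the 2-fold rule between genotypes. Between the gates, 10 gained a call and 3 lost one. The 8 given above turned. Between genotypes, a turn was counted only for members 2-fold apart in the report, and the size of a change was not sorted.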
